A study of Mus musculus with 16 samples.

Results

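Bivalent regions are stretches of chromatin that carry H3K4me3, the histone mark of active or poised start sites, together with Polycomb marks. Among 36255 H3K4me3 regions of MycER embryonic stem cells (ESCs), 1380 were bivalent by Suz12 in both cultures and carried an H3K27me3 peak in Myc-ESCs but none in LIF-ESCs. Peaks were taken from 6 lists, 1 for each of 2 cultures and 3 antibodies. Overlapping H3K4me3 peaks from either culture were joined to make the regions. A region was kept if it overlapped a LIF-ESC H3K4me3 peak, which left 31943, and if a LIF-ESC Suz12 peak lay within 1000 bp, which left 3567. A Myc-ESC Suz12 peak within 1000 bp was then required, which left 3099. No LIF-ESC H3K27me3 peak lay within 1000 bp of 2202 of these, and a Myc-ESC H3K27me3 peak lay within 1000 bp of 1380. The regions were thus selected on the presence and absence of H3K27me3 peaks, and the difference in H3K27me3 itself is a description and not a finding. Over all merged H3K4me3 regions, 6.65% had an H3K27me3 peak in Myc-ESCs only.

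R1 mouse ESCs expressing MycER, a Myc protein that becomes active when 4-hydroxytamoxifen (OHT) is added, were grown without feeder cells and with vitamin C. LIF-ESCs received 100 units per ml LIF, the cytokine that maintains mouse ESCs through Jak-Stat signalling, and no OHT. Myc-ESCs received 50 nM OHT and no LIF. Of 16 ChIP-sequencing libraries, 4 were inputs and 2 stood behind each peak list, with antibodies against Suz12, H3K27me3 and H3K4me3. The methods name a single clone of these cells as the main line, so the cultures do not represent independent lines. LIF-ESCs carried the transgene too, and no library came from cells given both LIF and OHT or neither. Loss of LIF and activation of Myc therefore cannot be told apart in this comparison. The lists hold peak positions and a score for each peak but no read counts, so the depth of each sample is unknown. The 3120 LIF-ESC and 16717 Myc-ESC H3K27me3 peaks make lists of unequal length, and a difference in depth cannot be told apart from a difference in the mark. With 1 list for each culture and antibody there was no replicate error and no test could be run between the cultures. The 95% Wilson intervals given with shares cover counting error only and treat regions as independent. As a check of the cell type, 10 ESC genes, Pou5f1, Sox2 and Nanog among them, were set beside 10 lineage genes. H3K4me3 lay at the start site of all 10 of each kind in both cultures and so did not separate them. H3K27me3 lay at 1 of the ESC genes in LIF-ESCs and at 2 in Myc-ESCs, against 5 and 6 of the lineage genes. Suz12 lay at 2 of the ESC genes in each culture, against 8 and 9 of the lineage genes. Col1a1 had neither Polycomb mark in either culture, and Thy1 neither in LIF-ESCs. The check took H3K4me3 without Polycomb marks at lineage genes as a sign of other cells, and its source was not tested. Gata6 and T counted as without H3K27me3 in Myc-ESCs, though both had start sites at regions meeting the rule, with 284 and 530 bp of it.

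Suz12 is a core subunit of Polycomb repressive complex PRC2, and the Ezh1 and Ezh2 subunits of that complex place the methyl groups of H3K27me3. In ESCs, PRC2 sits mainly at CpG-rich start sites of developmental regulators that are kept silent or at low expression. A region can hold Suz12 without a called H3K27me3 peak, as members did in LIF-ESCs. A pair of further classes met the same conditions on H3K4me3 and Suz12 and are given for comparison. At 803 regions H3K27me3 was called in both cultures, and at 822 regions in neither. A further 94 regions carried it in LIF-ESCs only.

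Sequences from GRCm38 show what both kinds of peak looked like at the same member, with every CG in capitals. Sfrp1 encodes a secreted Wnt antagonist, and its LIF-ESC Suz12 peak lay in the coding part of the first exon. The 300 bases on the middle of that peak, at chr8:23411851-23412150 on the plus strand, hold 22 CG pairs and 63.7% G plus C. The 150 bases on the middle of its highest-scoring Myc-ESC H3K27me3 peak, at chr8:23412741-23412890 in an intron, hold 3 CG pairs and 36.0% G plus C.
Sfrp1, Suz12: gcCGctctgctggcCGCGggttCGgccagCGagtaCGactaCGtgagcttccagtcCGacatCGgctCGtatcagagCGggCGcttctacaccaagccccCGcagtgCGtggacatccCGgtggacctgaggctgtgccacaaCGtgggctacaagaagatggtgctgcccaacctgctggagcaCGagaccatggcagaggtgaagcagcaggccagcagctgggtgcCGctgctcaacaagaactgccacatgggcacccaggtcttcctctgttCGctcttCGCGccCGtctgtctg
Sfrp1, H3K27me3: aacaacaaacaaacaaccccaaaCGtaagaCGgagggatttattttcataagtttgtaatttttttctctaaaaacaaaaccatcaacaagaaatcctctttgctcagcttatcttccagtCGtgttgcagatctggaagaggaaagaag

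Zfp9, a zinc-finger gene, shows that the contrast was not general. Both windows there are poor in CG, with 3 pairs in 300 bases at chr6:118478123-118478422 and 1 pair in 150 bases at chr6:118476592-118476741, and both lie in introns. At Sox21, an HMG-box factor of neural development, the H3K27me3 window at chr14:118238206-118238355 lies in an exon of the non-coding gene Gm4675 and holds 1 CG pair. At Hoxa7, a homeobox factor of the body axis, the window at chr6:52216436-52216585 lies in an intron and holds 3 CG pairs. These genes had the largest total length of H3K27me3 peaks among members with a protein-coding start site.
Zfp9, Suz12: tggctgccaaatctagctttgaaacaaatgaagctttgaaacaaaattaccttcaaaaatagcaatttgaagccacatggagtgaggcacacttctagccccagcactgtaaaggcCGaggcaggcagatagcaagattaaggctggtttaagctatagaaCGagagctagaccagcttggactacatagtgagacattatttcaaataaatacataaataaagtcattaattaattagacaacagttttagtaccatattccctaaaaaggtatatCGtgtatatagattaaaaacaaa
Zfp9, H3K27me3: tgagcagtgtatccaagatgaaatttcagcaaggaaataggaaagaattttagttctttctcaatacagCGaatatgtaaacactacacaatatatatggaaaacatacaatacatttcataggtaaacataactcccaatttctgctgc
Sox21, H3K27me3: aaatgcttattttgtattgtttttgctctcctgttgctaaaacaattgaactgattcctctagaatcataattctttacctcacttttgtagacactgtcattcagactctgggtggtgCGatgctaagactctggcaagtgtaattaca
Hoxa7, H3K27me3: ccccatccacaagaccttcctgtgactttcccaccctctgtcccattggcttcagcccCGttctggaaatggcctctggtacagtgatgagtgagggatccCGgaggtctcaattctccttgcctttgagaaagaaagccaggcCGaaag

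For comparison, Lef1, which encodes a DNA-binding factor of the Wnt pathway, had the most Suz12 in LIF-ESCs among regions with H3K27me3 in neither culture. The 300 bases on the middle of its highest-scoring LIF-ESC Suz12 peak, at chr3:131111955-131112254 in an intron, hold 25 CG pairs and 65.0% G plus C.
Lef1, Suz12: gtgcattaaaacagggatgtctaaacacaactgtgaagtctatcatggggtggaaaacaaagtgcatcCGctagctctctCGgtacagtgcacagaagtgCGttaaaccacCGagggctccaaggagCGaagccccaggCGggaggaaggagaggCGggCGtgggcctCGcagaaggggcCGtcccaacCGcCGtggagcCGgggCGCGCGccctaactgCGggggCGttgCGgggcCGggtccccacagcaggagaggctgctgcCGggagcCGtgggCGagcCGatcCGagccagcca

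Over all members, H3K27me3 peaks differed in base composition from the highest-scoring Suz12 peaks in the same direction as at Sfrp1. All H3K27me3 peaks are set here against only the highest-scoring Suz12 peak of each member. The part of this choice in the differences below was not tested. The 3555 separate Myc-ESC H3K27me3 peaks at members had a median of 2 CG pairs and 46.0% G plus C in the 150 bases on their middle. Their median CpG observed to expected ratio, the number of CG pairs over that expected from the C and G content, was 0.268. The highest-scoring Myc-ESC Suz12 peak of each member had a median of 8 CG pairs, 58.7% G plus C and a ratio of 0.636. Values for the highest-scoring LIF-ESC Suz12 peak were 7 CG pairs, 56.7% and 0.602. At the regions with H3K27me3 in both cultures, the 3528 Myc-ESC H3K27me3 peaks had medians of 2 CG pairs and 46.0% G plus C, the same as at members. Where the middle of a peak fell relative to genes was also counted. Of the H3K27me3 peaks at members, 51.9% lay in introns (interval 50.2 to 53.5%), 37.2% between genes and 4.59% in coding sequence. For the highest-scoring LIF-ESC Suz12 peak these shares were 45.4%, 24.1% and 18.6%.

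In position, the H3K27me3 of members flanked the start site and did not cover it. Coverage was measured in 100 bp steps around start sites of 1035 members with a single protein-coding gene. In Myc-ESCs, an H3K27me3 peak covered the start site itself at 1.65% of these genes. Coverage reached 16.2% at 1350 bp downstream and 11.7% at 1150 bp upstream. Suz12 in the same culture was highest at 550 bp downstream, at 79.9%, and covered 60.2% at the start site. LIF-ESC Suz12 had its maximum of 57.9% at 650 bp downstream and stood at 38.7% at the start site. H3K4me3 covered the start site at 95.2% of the genes in LIF-ESCs and at 96.9% in Myc-ESCs. The same dip at the start site was seen at the 549 genes with H3K27me3 in both cultures, where Myc-ESC coverage was 2.86% at the start site and 27.5% at 1550 bp downstream. Measured by peaks, 3031 of the 3555 H3K27me3 peaks lay within 5000 bp of a start site. Of these, 8.25% (interval 7.32 to 9.28%) lay within 500 bp and 63.9% (interval 62.2 to 65.6%) between 500 and 2000 bp. By side, 59.7% (interval 58.0 to 61.5%) were downstream. The rule took only H3K27me3 peaks within 1000 bp of an H3K4me3 region, which limits their distance from start sites. The bands also differ in width, so these shares describe the peaks taken and are no measure of preference.

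**Figure D1:**
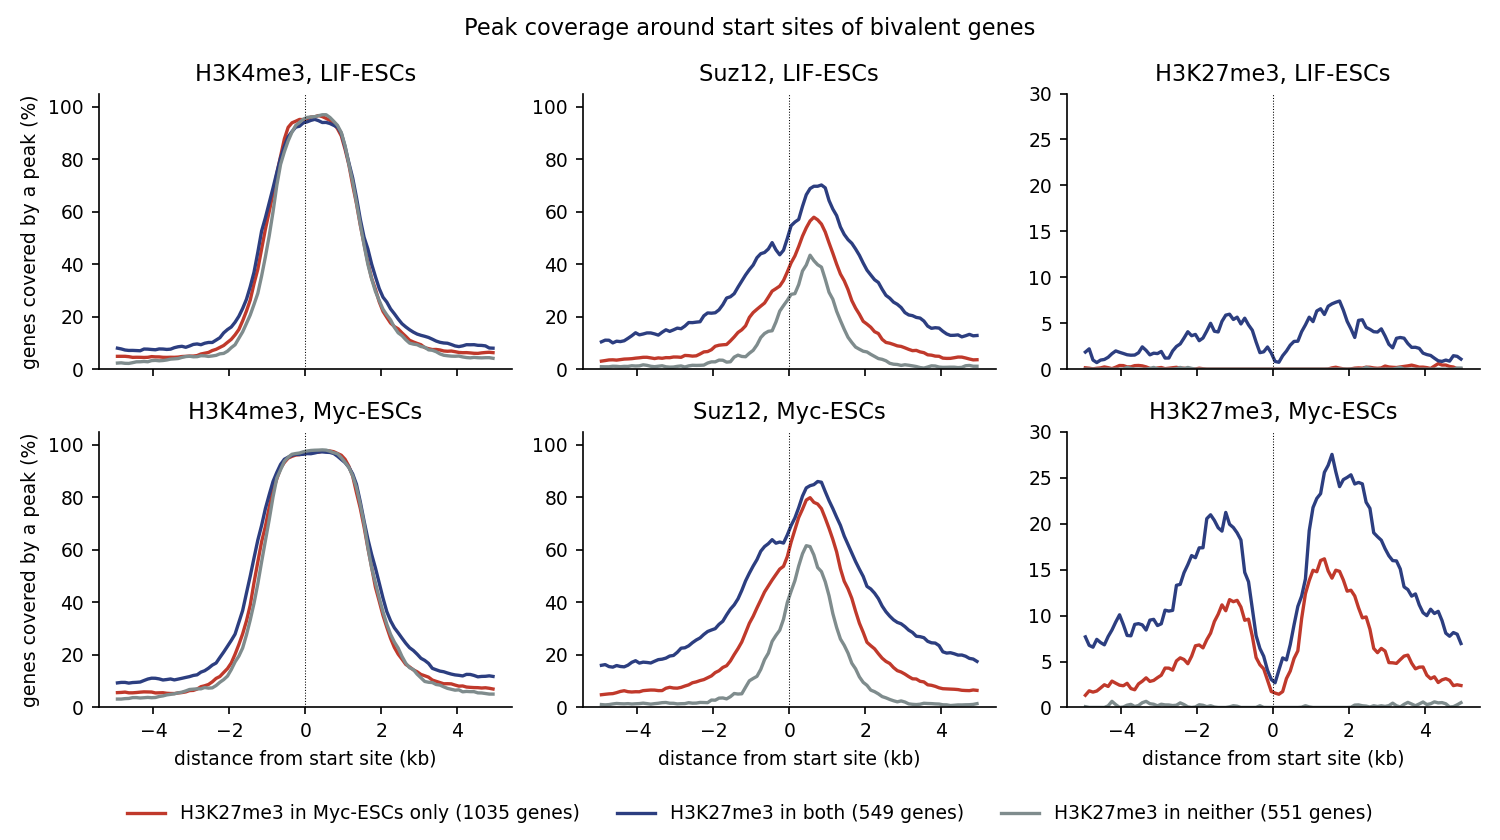
Share of genes covered by a peak (percent, vertical axis) against distance from the start site (kb, horizontal axis), for each mark in LIF-ESCs (upper row) and Myc-ESCs (lower row); lines are the 3 classes of bivalent regions. Members (red, 1035 genes) show Myc-ESC H3K27me3 on both sides of the start site, 16.2% at 1350 bp downstream against 1.65% at the start site, and their Suz12 lies between the other classes in both cultures.

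The H3K27me3 peaks of members were short and few. Short peaks were general, with median lengths of 162 bp over the whole Myc-ESC H3K27me3 list and 157 bp over the LIF-ESC list. A single peak was called at 486 members, 2 at 319, 3 or 4 at 378 and 5 or more at 197. Total peak length per member had a median of 369 bp (quartiles 178 and 673 bp, range 87 to 3473 bp). Regions with H3K27me3 in both cultures had a median of 945 bp in Myc-ESCs and of 192 bp in LIF-ESCs. The deposited score grows with enrichment and depth, and no peak in any list scored below 50. The highest score of a member's Myc-ESC H3K27me3 peaks had a median of 77.1. It was at least 100 at 424 members (30.7%, interval 28.3 to 33.2%) and under 60 at 307 (22.2%, interval 20.1 to 24.5%). At regions with H3K27me3 in both cultures, the Myc-ESC score was at least 100 at 62.5% and the LIF-ESC score at 14.1%, with medians of 128 and 67.1. Many members were thus close to the limit of detection, and the absence of a LIF-ESC peak says only that none was called.

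H3K27me3 did not always lie where Suz12 was called. Of the 3555 peaks, 60.8% (interval 59.1 to 62.4%) overlapped a Myc-ESC Suz12 peak, and 82.6% had one within 500 bp. Suz12 peaks of both cultures were overlapped by 38.8%, a Myc-ESC Suz12 peak alone by 22.0% and a LIF-ESC Suz12 peak alone by 3.43%. No Suz12 peak was overlapped by 35.8% (interval 34.2 to 37.4%), compared with 20.3% (interval 19.0 to 21.7%) at regions with H3K27me3 in both cultures. Myc-ESC Suz12 peaks covered 39.2% of the bases of members and their flanks of 1000 bp. From the middle of a member's highest-scoring H3K27me3 peak to that of its highest-scoring Myc-ESC Suz12 peak, the median distance was 1093 bp (quartiles 582 and 1737 bp).

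The rule asked only whether Suz12 was present, so its extent was free to vary. Suz12 length, the summed whole length of the Suz12 peaks within 1000 bp of the region, had a median over members of 1083 bp in LIF-ESCs (95% interval of the median 1027 to 1163 bp) and 1868 bp in Myc-ESCs (interval 1787 to 1969 bp). In both cultures members stood between the other classes. Regions with H3K27me3 in both cultures had medians of 2066 and 2926 bp, and those with H3K27me3 in neither had 555 and 873 bp. The quartile ranges of the classes overlapped in LIF-ESCs, from 528 to 1897 bp for members and from 1060 to 4063 bp for H3K27me3 in both, while those with H3K27me3 in neither spanned 248 to 1032 bp. The highest Suz12 score at members had a median of 232 in LIF-ESCs and 767 in Myc-ESCs.

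Suz12 peaks covered more bases in Myc-ESCs over the list as a whole, 9.38 Mb against 6.22 Mb in LIF-ESCs. The Myc-ESC list held 13907 peaks and the LIF-ESC list 11305, with median peak lengths of 269 and 262 bp. Depth and Suz12 extent therefore cannot be told apart in the ratios below. At members the ratio of Myc-ESC to LIF-ESC Suz12 length had a median of 1.56 (quartiles 1.16 and 2.42), against 1.43 over the 3434 H3K4me3 regions with Suz12 in both cultures. Suz12 was at least 1.5 times longer in Myc-ESCs at 727 members (52.7%, interval 50.0 to 55.3%), beside 46.6% of those 3434 regions. It was at least 1.5 times longer in LIF-ESCs at 55 members (3.99%), beside 7.6%. The share longer in Myc-ESCs was 41.6% (interval 38.2 to 45.0%) with H3K27me3 in both cultures and 45.7% (interval 42.4 to 49.2%) with H3K27me3 in neither.

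**Figure D2:**
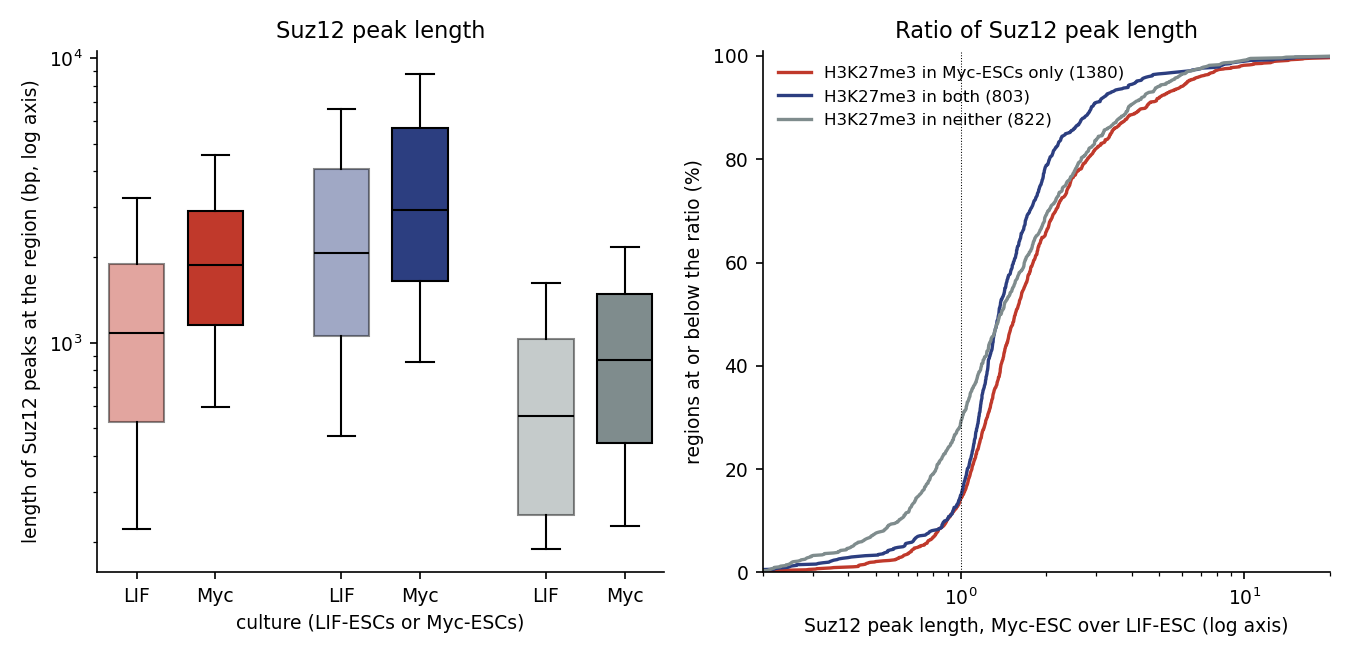
Left, summed length of Suz12 peaks per region (bp, log axis) by culture, for regions with H3K27me3 in Myc-ESCs only (red), in both cultures (blue) and in neither (grey), with the median, quartiles and 10th and 90th percentiles; right, cumulative share of regions (percent) by the ratio of Myc-ESC to LIF-ESC length (log axis). Members have medians of 1083 and 1868 bp, between the other classes, and a median ratio of 1.56.

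The 2202 regions without H3K27me3 in LIF-ESCs allow the share that carried it in Myc-ESCs to be read against values from LIF-ESCs. That share was 62.7% over all (interval 60.6 to 64.7%). In the quartile with the least LIF-ESC Suz12, with a median of 212 bp, it was 44.5% (interval 40.4 to 48.6%). It was 55.1% in the second quartile, 66.9% in the third and 84.2% (interval 80.9 to 87.0%) in the quartile with a median of 2327 bp. The intervals of the 4 quartiles did not overlap. By CpG ratio the shares went from 61.5% (interval 57.4 to 65.5%) in the lowest quartile through 58.9 and 63.5 to 66.8% (interval 62.8 to 70.6%), with overlapping intervals. By G plus C the lowest and highest quartiles had the higher shares, 66.6% and 68.2%, and the middle quartiles 57.5 and 58.4%. By length of the H3K4me3 region they were 56.6, 58.9, 69.6 and 65.5%. By the ratio of Myc-ESC to LIF-ESC Suz12 length the shares did not follow the order of the quartiles, with 48.3% (interval 44.1 to 52.4%) in the lowest, then 70.7 and 67.8%, and 63.9% (interval 59.8 to 67.8%) in the highest. Within quartiles of LIF-ESC Suz12 length, members had the higher ratio of Suz12 length. In the quartile with the least LIF-ESC Suz12 its median was 3.88 at 245 members and 2.16 at 306 regions with H3K27me3 in neither culture, and in the quartile with the most it was 1.30 at 464 and 1.05 at 87.

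**Figure D3:**
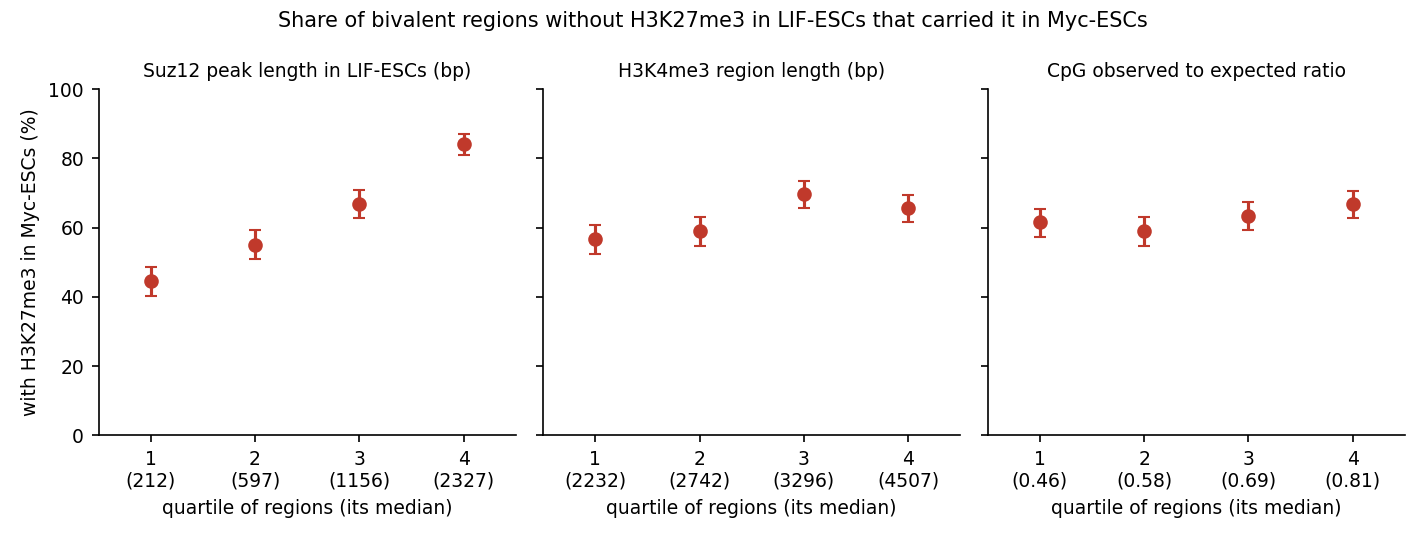
Share of 2202 bivalent regions without LIF-ESC H3K27me3 that carried an H3K27me3 peak in Myc-ESCs (percent, vertical axis) by quartile of Suz12 length in LIF-ESCs, H3K4me3 region length and CpG ratio; bars are 95% Wilson intervals and the median of each quartile is in parentheses. The share goes from 44.5% to 84.2% across Suz12 length and from 61.5% to 66.8% across CpG ratio.

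H3K4me3 was kept at almost all members. A Myc-ESC H3K4me3 peak overlapped 1360 of 1380 (98.6%), close to the 96.5% with H3K27me3 in both cultures and 97.9% with H3K27me3 in neither. Of all 31943 regions with a LIF-ESC H3K4me3 peak, 25730 also had a Myc-ESC one. The length of member regions had a median of 3071 bp (quartiles 2576 and 3705 bp). LIF-ESC H3K4me3 covered a median of 2501 bp of the region, and Myc-ESC H3K4me3 3017 bp. Of the 1360 members with H3K4me3 in both cultures, 179 (13.2%, interval 11.5 to 15.1%) had at least 1.5 times more H3K4me3 length in Myc-ESCs, against 8.8% of 25730 H3K4me3 regions called in both. Only 7 members (0.515%) had at least 1.5 times more in LIF-ESCs, against 3.62% of those regions. The share with at least 1.5 times more in Myc-ESCs was 18.1% with H3K27me3 in both cultures and 16.0% with H3K27me3 in neither. A larger H3K4me3 length in Myc-ESCs was thus seen in each class.

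A curated RefSeq start site lay within 1000 bp of 1099 members (79.6%, interval 77.4 to 81.7%), compared with 74.8% of regions with H3K27me3 in both cultures and 71.4% (interval 68.2 to 74.4%) of those with it in neither. At 132 members there were start sites of 2 or more genes. The 281 members without one lay a median of 11453 bp from the nearest start site, with 127 within 10000 bp, and 61 had a start site of a predicted transcript. Their median Suz12 length in Myc-ESCs, 1878 bp, and H3K27me3 length, 370 bp, were close to the 1867 and 368 bp of members with a start site. In all, 1221 genes had a start site at a member, 1071 of them protein-coding, and 1185 had start sites at no region of the 3 other classes. These genes are 46.9% of the 2603 genes at bivalent regions of any class, which is the value to set beside each family below.

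Among homeobox genes, members and regions with H3K27me3 in both cultures held different shares of the families. Of 39 genes of the Hox clusters, which pattern the body axis, 8 lay at members, 20 at regions with H3K27me3 in both cultures and 0 at regions with it in neither. Members thus held 28.6% (interval 15.3 to 47.1%) of the Hox genes at bivalent regions. The member at Hoxa7, chr6:52215494-52218789, had 9 H3K27me3 peaks in Myc-ESCs with a total of 2811 bp. Suz12 length went from 7977 bp in LIF-ESCs to 30955 bp in Myc-ESCs, the latter a single peak at chr6:52211213-52242167 that reaches over neighbouring genes of the cluster. Hoxb9 had 1569 bp of H3K27me3. Further homeobox families that pattern head, limb and sense organs, Dlx, Irx, Msx, Otx and Emx among them, have 25 genes. Their counts were 5 at members, 13 at regions with H3K27me3 in both and 0 in neither. Members held 26.3% (interval 11.8 to 48.8%) of those at bivalent regions.

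The Nkx genes, homeobox factors of brain, lung, heart and pancreas, leaned the other way. Of 14, 8 lay at members and 2 at regions with H3K27me3 in both cultures, so members held 80.0% (interval 49.0 to 94.3%). Nkx1-1 (chr5:33432572-33436039) had 11 H3K27me3 peaks with 2306 bp in Myc-ESCs, and its Suz12 length went from 5562 bp in LIF-ESCs to 6584 bp in Myc-ESCs. Nkx2-4 had 1812 bp of H3K27me3 and Nkx6-1 1397 bp. Each family is small and the intervals of Nkx and Hox are wide, and no test of the difference was made.

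Other lineage factors were divided between the classes. Of the genes at bivalent regions, members held 38.5% of Sox, 38.1% of forkhead, 34.5% of basic helix-loop-helix and 50.0% of T-box genes. Each interval took in the 46.9% of all genes. Of the 19 Sox genes, 5 lay at members, and Sox21 (chr14:118233452-118238405) had the most H3K27me3 of any member with a protein-coding start site, 3473 bp in 7 peaks. Suz12 length there was 6606 bp in LIF-ESCs against 9457 bp in Myc-ESCs. Forkhead factors counted 8 at members and 11 at regions with H3K27me3 in both cultures, of 44, with Foxd3, a factor of the epiblast and neural crest, at 1543 bp of H3K27me3. Basic helix-loop-helix lineage factors counted 10 and 13 of 45, with the mesoderm factor Twist1 at 812 bp and the neural factor Neurod1 at 635 bp. Of 17 T-box genes, 4 lay at members, with Tbx2 at 1500 bp and Eomes, a factor of mesoderm and endoderm, at 851 bp. Gata3, of trophoblast and T cells, had 1993 bp in 9 peaks and a Suz12 length of 8399 bp in LIF-ESCs against 17500 bp in Myc-ESCs. Lhx1 and Lhx9, LIM-homeobox factors, had 1968 and 1960 bp of H3K27me3. Pax6, of eye and forebrain, had 523 bp at its member, and the nearest LIF-ESC H3K27me3 peak lay 3789 bp from that region. In the check of the cell type Pax6, with 4 start sites, counted among the lineage genes with LIF-ESC H3K27me3.

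Genes of the Wnt pathway were present in each role. Of the genes at bivalent regions, members held 71.4% of the ligands (interval 45.4 to 88.3%). For inhibitors the share was 50.0%, and for receptors and R-spondins 54.5%. Each interval took in the 46.9% of all genes. Of 19 Wnt ligands, 10 lay at members, 5 at regions with H3K27me3 in both cultures and 1 at a region with it in neither. Wnt3a had 1615 bp of H3K27me3 in 7 peaks, with a Suz12 length of 2187 bp in LIF-ESCs against 2987 bp in Myc-ESCs. Wnt5a had 1168 bp and Wnt11 1093 bp, with Suz12 lengths over 5000 bp in both cultures. Wnt11 also had a start site at a region with H3K27me3 in both cultures. Among 36 genes listed as inhibitors of Wnt signalling, 7 lay at members, 4 at regions with H3K27me3 in both and 3 in neither. The members were Shisa6, Sfrp1, Shisa8, Sfrp5, Shisa9, Dact1 and Draxin, with 115 to 391 bp of H3K27me3. Sfrp1 and Sfrp5 are secreted proteins that bind Wnt, Dact1 is a cytoplasmic protein that binds Dishevelled, and Shisa6, Shisa8 and Shisa9 are known as partners of AMPA-type glutamate receptors. Of 22 receptors and R-spondins, which bind Wnt or raise its signalling, 6 lay at members, among them Lgr5 with 1252 bp, Rspo2 with 694 bp and Fzd4 with 449 bp.

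At Sfrp1 (chr8:23409241-23414028) the 2 lists of Suz12 differed more than at most members. The LIF-ESC list held 1 peak of 203 bp with a score of 75.2, and the Myc-ESC list 4 peaks with 3539 bp and a highest score of 1956, a ratio of 17.4. H3K27me3 consisted of 2 peaks with 382 bp and a highest score of 75.9. At Sfrp5 (chr19:42200490-42202948), Suz12 length was 1139 bp in LIF-ESCs against 2082 bp in Myc-ESCs, and H3K27me3 covered 336 bp in Myc-ESCs. Rspo1 (chr4:124985025-124988144), a ligand of the Lgr receptors, had Suz12 lengths of 191 and 801 bp and 288 bp of H3K27me3. A LIF-ESC H3K27me3 peak lay 1176 bp from the Rspo1 region, little beyond the limit of the rule. Of the genes besides Sfrp1 and Sfrp5 whose chromatin the study names, Dkk1, Sox17 and Fzd1 carried H3K27me3 in both cultures. Apcdd1 and Socs3 had no LIF-ESC Suz12 peak and Fzd7 no Myc-ESC Suz12 peak, so these 3 met the rule in no class. Socs3, a feedback inhibitor of the LIF receptor, had 3295 bp of Suz12 and 585 bp of H3K27me3 in Myc-ESCs.

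The study's supplementary data give pathway lists, whose counts are set beside the 46.9% for all genes. Of 349 genes on its Wnt list, 46 lay at members, which is 48.4% (interval 38.6 to 58.3%) of those at any bivalent class. Prickle1, which acts in planar polarity, lay at 2 members, chr15:93517680-93521225 with 2193 bp of H3K27me3 and chr15:93594089-93597412 with 2009 bp. The share was 49.2% for the canonical Wnt list (31 of 166 genes at members), 51.3% for MAPK (60 of 476), 50.0% for Hippo (23 of 156) and 44.9% for TGF-BMP (22 of 102). For the Jak-Stat lists it was 40.7% (interval 24.5 to 59.3%), with 11 of 200 genes at members. Jak2, a cytokine-receptor kinase of the Jak family, was one of these, with 1036 bp of H3K27me3 in 5 peaks and a Suz12 length of 191 bp in LIF-ESCs against 1137 bp in Myc-ESCs. Lepr, the leptin receptor, had 776 bp. The pluripotency list had 5 of 320 genes at members, Bmp7, Esrrb, Wnt7a, Sfrp1 and Wrap73. Esrrb, an orphan nuclear receptor of the ESC network, had 691 bp of H3K27me3 in 4 peaks and a Suz12 length of 2054 bp in LIF-ESCs against 2910 bp in Myc-ESCs. None of these shares had an interval that left out 46.9%.

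Families of surface proteins differed in the share of their genes at members. Potassium channel subunits, which set the membrane potential of excitable cells, counted 30 at members, 8 at regions with H3K27me3 in both cultures and 4 in neither, of 92. Members held 73.2% (interval 58.1 to 84.3%) of the potassium channel genes at bivalent regions. Kcnc1 had 1069 bp of H3K27me3, Kcnj2 885 bp and Kcnk15 770 bp. Cadherins and protocadherins, which join cells, counted 13, 2 and 3 of 35, or 72.2% (interval 49.1 to 87.5%), with Cdh8 at 2269 bp in 10 peaks. Eph receptors and ephrins, which guide axons and cell borders, counted 8, 1 and 1 of 22, or 80.0% (interval 49.0 to 94.3%). Epha7 had 2163 bp and Efna5 1050 bp. The Epha7 region (chr4:28811478-28816731) had nearly the same Suz12 length in LIF-ESCs, 3808 bp, as in Myc-ESCs, 4029 bp. Sodium and calcium channels counted 10, 3 and 4 of 39, or 58.8% (interval 36.0 to 78.4%). Glutamate and GABA receptors counted 7, 6 and 7 of 45, or 33.3% (interval 17.2 to 54.6%), and receptors of monoamines and acetylcholine 10, 7 and 6 of 49, or 43.5% (interval 25.6 to 63.2%), both below the 46.9% of all genes. Fibroblast growth factors and their receptors counted 2, 7 and 2 of 26, or 16.7% (interval 4.70 to 44.8%).

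Further signalling genes lay at members in smaller numbers. Hedgehog genes counted 5 of 10, or 71.4% (interval 35.9 to 91.8%) of those at bivalent regions. Among them were the ligands Dhh with 1254 bp and Ihh with 996 bp of H3K27me3. Gas1, a Hedgehog co-receptor, had a Suz12 length of 185 bp in LIF-ESCs against 2657 bp in Myc-ESCs. Bmp and Gdf ligands with their antagonists counted 9 of 40, or 52.9% (interval 31.0 to 73.8%) of those at bivalent regions. The antagonist Grem1 had 1087 bp. The Cdk inhibitor genes Cdkn2a and Cdkn2b, which restrain the cell cycle, lay at separate members with 565 and 507 bp of H3K27me3. Cdkn2a also had a start site at a region with H3K27me3 in both cultures. Of lists without a developmental role, 1 of 84 ribosomal protein genes and 0 of 48 proteasome genes lay at a member. Over all annotated genes it was 1221 of 26180.

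**Figure D4:**
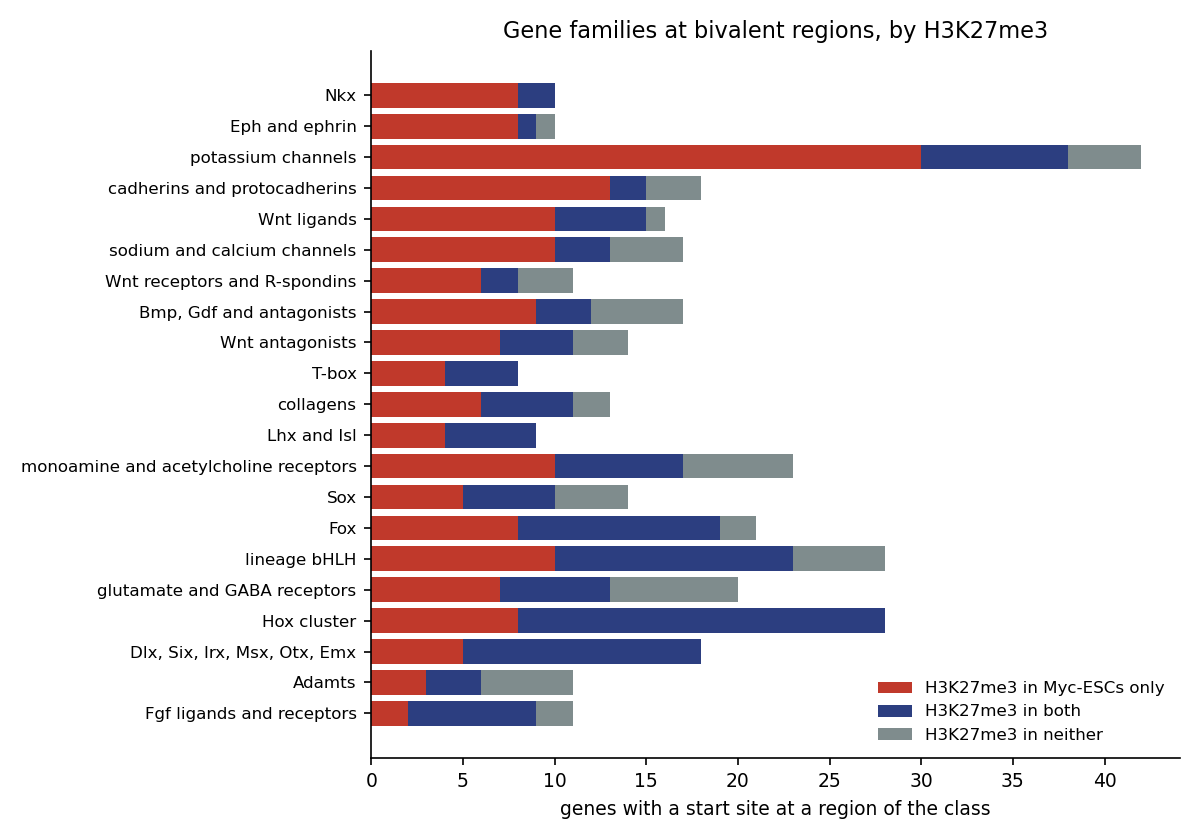
Number of genes with a start site at bivalent regions (horizontal axis) for families with at least 8 such genes, divided by where H3K27me3 was called; a gene with start sites in 2 classes is counted in both. Potassium channels show 30 genes at members (red), Nkx 8 and Hox 8, and Hox has 20 at regions with H3K27me3 in both cultures (blue).

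The members with the largest and smallest change in Suz12 length show its range. Pcdhga10, a clustered protocadherin, had 206 bp in LIF-ESCs against 8005 bp in Myc-ESCs, a ratio of 38.9. Zfp36l1, an RNA-binding protein, had 169 and 4743 bp, and Itgb3, an integrin, 195 and 4465 bp. Zc3hav1l had 218 and 4625 bp, and Bcl6, a transcriptional repressor, 175 and 3703 bp. Each of these had 1 LIF-ESC Suz12 peak, with scores from 56.3 at Bcl6 to 91.6 at Itgb3. These scores are near the lower limit of 50, so the ratios rest on weak LIF-ESC peaks. At the other end, Fign had 1537 bp in LIF-ESCs against 241 bp in Myc-ESCs, a ratio of 0.157. Mest, an imprinted gene, had 1635 and 360 bp, and Fzd4 793 and 182 bp. H3K27me3 at these 3 consisted of 1 to 3 peaks in Myc-ESCs, with 129 to 449 bp. Its highest scores were 61.2 at Fign, 51.9 at Mest and 62.0 at Fzd4, also near the limit of 50. A call of H3K27me3 in Myc-ESCs also occurred at these members, whose Suz12 length was smaller there, but it rests on weak H3K27me3 peaks.

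**Figure D5:**
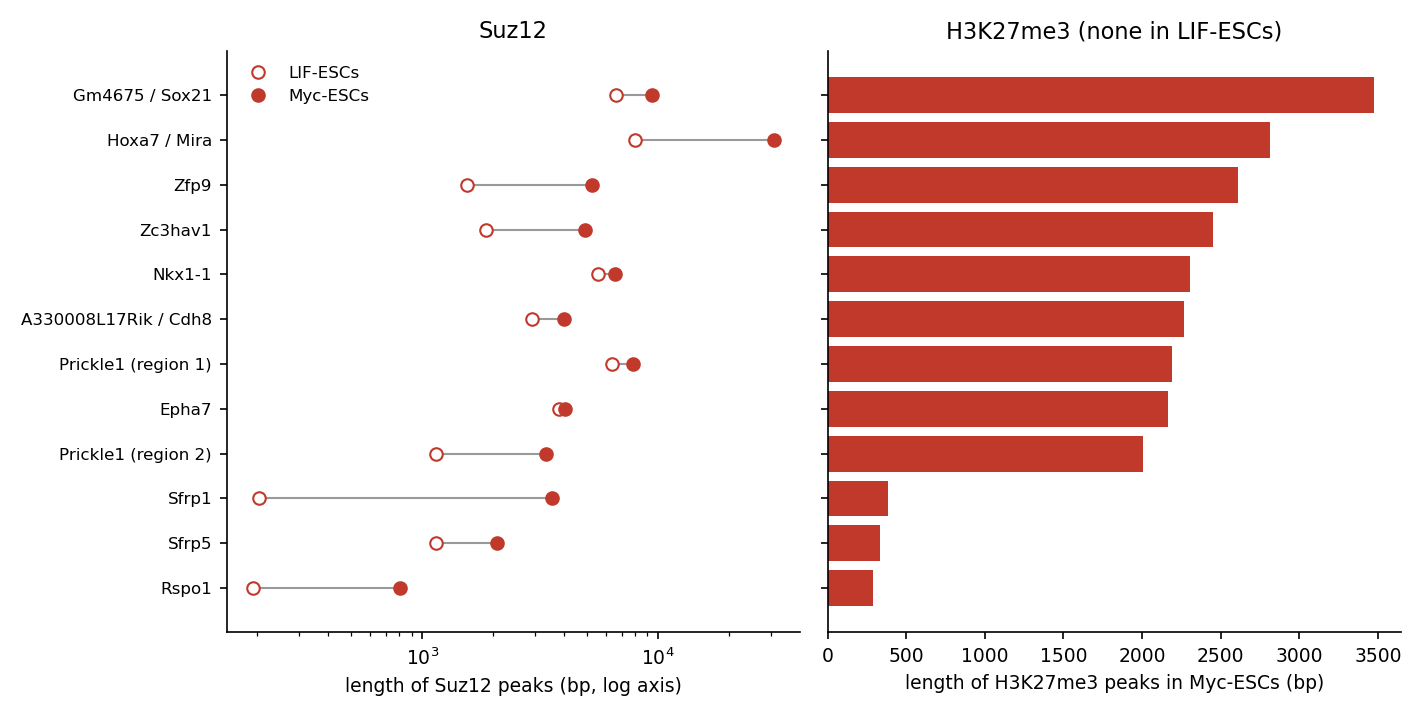
Left, summed Suz12 peak length (bp, log axis) in LIF-ESCs (open circles) and Myc-ESCs (filled circles). Right, summed H3K27me3 peak length in Myc-ESCs (bp). Drawn are 9 of the 10 members with the most H3K27me3 at a protein-coding start site, and the members at Sfrp1, Sfrp5 and Rspo1. Suz12 length was greater in Myc-ESCs at each of the 12 members drawn, from 203 to 3539 bp at Sfrp1 and from 3808 to 4029 bp at Epha7. The ratio of Myc-ESC to LIF-ESC Suz12 length had a lower quartile of 1.16 over all members. It was 1.08 over the 3434 H3K4me3 regions with Suz12 in both cultures, so a greater length in Myc-ESCs was common to most regions.

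LIF-ESC H3K27me3 lay nearby more often at members than at regions with the mark in neither culture. A LIF-ESC H3K27me3 peak lay between 1000 and 5000 bp away from 118 members (8.55%, interval 7.19 to 10.1%), against 22 of the 822 regions (2.68%, interval 1.77 to 4.02%). Within 100000 bp the shares were 28.7% and 17.5%. At the limit of the rule, the 5 nearest members had their LIF-ESC peak 1007 to 1084 bp away, Otx1 at 1027 bp and Nkx6-1 at 1084 bp among them. Just inside it, the LIF-ESC peak was 920 to 996 bp away from 5 regions with H3K27me3 in both cultures, among them Nfix and Egr2. By score, the 5 members nearest the limit of 50 had a highest Myc-ESC H3K27me3 score of 50.2 to 50.6. Among them were Sv2b, Mfap3l and AW011738.

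The share of regions that carried H3K27me3 in Myc-ESCs differed between chromosomes. It was 34.0% on X (18 of 53, interval 22.7 to 47.4%), 42.6% on 10 (40 of 94, interval 33.0 to 52.6%) and 48.6% on 16 (34 of 70). The shares were highest on 14, with 72 of 93 (77.4%, interval 67.9 to 84.7%), and on 19, with 69 of 90 (76.7%). On the other 15 autosomes the share was between 58.0 and 70.1%. Median LIF-ESC Suz12 length of these regions was 812 bp on X, 658 bp on 10, 750 bp on 16, 834 bp on 14 and 846 bp on 19. The part of Suz12 length in these shares was not tested.

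Sequence letters of members were counted in 1000 bp on the middle of the highest-scoring LIF-ESC Suz12 peak. G plus C had a median of 57.5% and the CpG ratio a median of 0.643 (95% interval of the median 0.632 to 0.657). It was 0.618 with H3K27me3 in both cultures, 0.617 (interval 0.607 to 0.635) with H3K27me3 in neither, and 0.602 over 3977 H3K4me3 regions with LIF-ESC Suz12. The order of members and regions with H3K27me3 in neither turned with the peak limits, to 0.641 against 0.670 with a score of at least 100 in all lists and to 0.634 against 0.639 with lists cut to equal numbers of peaks. It also turned within quartiles of LIF-ESC Suz12 length, where members had 0.626 against 0.559 in the lowest but 0.671 against 0.686 in the highest. Members without a start site had a median ratio of 0.620. The canonical E-box CACGTG, which reads the same on both strands and which Myc can bind with Max, occurred in 227 members (16.4%, interval 14.6 to 18.5%). Its share was 16.2% with H3K27me3 in both cultures, 16.1% in neither and 16.3% over the 3977 regions. CACGCG, searched on both strands, was found in 36.8% of members (interval 34.3 to 39.4%), against 31.9% (interval 28.8 to 35.2%), 33.3% (interval 30.2 to 36.6%) and 32.0%. GAGAGAG, also on both strands, was found in 31.2%, against 34.4, 27.6 and 32.1%. A match describes the letters only and is no sign of binding.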

How the data were processed

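ChIP-sequencing of H3K4me3, Suz12 and H3K27me3 was done in both cultures. The authors aligned reads to GRCm38, used only uniquely placed ones and called peaks (Bowtie2 2.2.3 and MACS 1.4.2 per the submitters' processing notes), and deposited 6 lists of peaks with a score for each peak. The score is a p-value on a log scale. It depends on depth, which is unknown. Pooling of the 2 libraries behind each list is not given in the sources used here.

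Peaks were compared with Python 3.11.15, pandas and numpy, tested on simulated data. No filter was applied to members. An overlap was at least 1 bp. Start sites were those of curated RefSeq transcripts, read within 1000 bp, and sequences were read from GRCm38.p6 with pysam. Peak lists hold no summits, so windows were centred on peak middles. The members and gene lists were chosen with earlier results of these data known. Genes named were the 10 members with the most H3K27me3 and a protein-coding start site, and up to 3 in each gene list. Others were the 5 with the largest and the 5 with the smallest Suz12 ratio, genes the study names, Rspo1, and members near the limits. Other names in the text, and the sequences of Sfrp1 and of H3K27me3 peaks, were chosen after values were seen. Windows on untranslated exons and 1 on a region without a start site were not printed. 1 of the 10 members is not reported here. No test was run.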

Additional observations from a re-analysis of the deposited data

How the results depend on the processing

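The lists are single, so no library could be left out, and depth is unknown. No paired analysis was possible because each culture has 1 list for each antibody. The number of members rests on weak peaks. With a score of at least 100 in all lists, 638 regions met the rule and the share of eligible regions with H3K27me3 in Myc-ESCs was 34.5%. Of the 1380 members, 302 met the rule under that limit, 619 had H3K27me3 in neither culture and 459 no longer met the conditions on H3K4me3 and Suz12. With lists cut to equal numbers of peaks, 370 regions met the rule, the share was 17.8%, and of the 1380 members 370 met it and 953 had H3K27me3 in neither. In both settings the median Suz12 length of members stayed between those of the other classes. The higher CpG ratio of members than of regions with H3K27me3 in neither turned in both, to 0.641 against 0.670 and 0.634 against 0.639.

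With distances of 0 bp in place of 1000 bp, the share was 57.0%, and the medians were 1181 bp of Suz12 in LIF-ESCs, 2002 bp in Myc-ESCs, 3164 bp of region length and 314 bp of H3K27me3. At a score of 100 these medians were 1927, 3033.5, 3373.5 and 523.5 bp, and with equal lists the first 3 were 1624, 2698 and 3259.5 bp. The share of H3K27me3 peaks overlapping Myc-ESC Suz12 was 74.5% at 0 bp, 53.9% at 5000 bp, 77.9% at a score of 100, 75.1% with equal lists, 57.8% without members that had a LIF-ESC H3K27me3 peak within 5000 bp, and 82.6% with Suz12 within 500 bp. Start sites lay at 76.6% of members with distances of 5000 bp, at 85.9% when read within 5000 bp and at 84.1% with all annotated transcripts. The CpG ratio was 0.629 in windows of 500 bp, 0.618 in 2000 bp and 0.731 on the middle of the region, and CACGTG occurred in 8.19% and 28.1% of the 500 and 2000 bp windows. The other settings left these values within their intervals, and the number of members within 1.5 times 1380.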
